A study of Mus musculus with 6 samples.

Results

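The genes described here are 42 DNA damage checkpoint and repair genes, measured by bulk RNA sequencing in CT26 tumours of mice given irinotecan or solvent. They were chosen by name from a list of pathway members, and each name was matched to the gene name in the deposited table, which lists 25251 genes. All 42 were found, and all 42 passed the low-value filter, a mean of at least 10 normalized counts over the 6 libraries, which left 14639 genes tested. CT26, a colon carcinoma line of mouse origin, was grown as tumours under the skin of BALB/c mice. Irinotecan, also called CPT-11, is the prodrug of a topoisomerase I inhibitor. The 3 irinotecan samples came from mice given 25 mg/kg into the peritoneum every 4 days, and the 3 control samples from mice given the solvent. In both groups the genotype label was WT, and animals were randomized at a tumour volume of 100 mm3. The sources used here do not state the age or sex of the mice, how many doses they received or when tumours were taken.

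Topoisomerase I inhibitors hold the enzyme on a nicked strand, and a replication fork that meets the trapped complex can turn the nick into a broken end. The kinases ATM and ATR sense broken ends and exposed single strands and act through CHK2 and CHK1 to stop the cell cycle, while homologous recombination, end joining, the Fanconi anaemia pathway and single-strand break repair restore the DNA. Much of this response acts through phosphorylation and ubiquitination of proteins already present, which an RNA measurement does not see.

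No member passed the test for a difference between irinotecan and control tumours. With limma and Benjamini-Hochberg adjustment over all genes tested, 0 of 42 members had an adjusted p under 0.05, and the lowest adjusted p was 0.743; among all genes tested the share called was 0%. At an unadjusted p under 0.05, 1 member was higher, the RecQ helicase gene Wrn, and 1 was lower, the nuclease subunit gene Ercc1; over all genes 2.68% were higher and 3.08% lower at that level. Neither gene was at that level without control replicate 1 or without control replicate 3. The log2 fold change of irinotecan over control, here on the scale of log2(normalized count + 1), had a median of 0.06 over the members and of -0.01 over all genes. Leaving out 1 library at a time gave medians over the members from 0.01, without control replicate 2, to 0.13, without control replicate 1 or control replicate 3. With all libraries the log2 fold change was positive for 27 members (64.3%) and negative for 15, beside 48.2% positive over all genes tested. Over the members it ranged from -0.65 for Ercc1 to 0.56 for Wrn. In tumour RNA, fewer cells of a type and less RNA per cell cannot be told apart.

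The intervals bound how large a difference could be. For 39 of 42 members the 95% interval of the log2 fold change lay within a 2-fold change either way, and for 23 within 1.5-fold. Atm, Prkdc and Ercc1 were the 3 whose intervals reached beyond 2-fold. Over all genes tested, 9668 of 14639 intervals lay within 2-fold and 4897 within 1.5-fold. The intervals are per gene and not adjusted for the number of genes.

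One library set much of the spread. Irinotecan replicate 1 correlated with the other 5 libraries at 0.932 to 0.941 in log2 values, while the remaining pairs of libraries correlated at 0.975 to 0.985, and had reads for 19040 genes, against 20571 to 21426 in the others. It lay outside the range of the other 5 libraries for 27 of 42 members (64.3%) and for 70.9% of all genes tested. The median SD of a member's log2 value was 0.232 over the 3 irinotecan libraries, 0.0720 over irinotecan replicates 2 and 3 alone, and 0.168 over the controls. Values that move by much without that library are given both ways. Recovered reads ranged from 14001328 to 15195613 in irinotecan libraries and from 13940650 to 15656894 in control libraries. Of 6 epithelial markers, Epcam, Cdx2 and Vil1 had at most 4.84 normalized counts in any library, while Krt8, Krt18 and Cdh1 were detected in all 6.

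**Figure D1:**
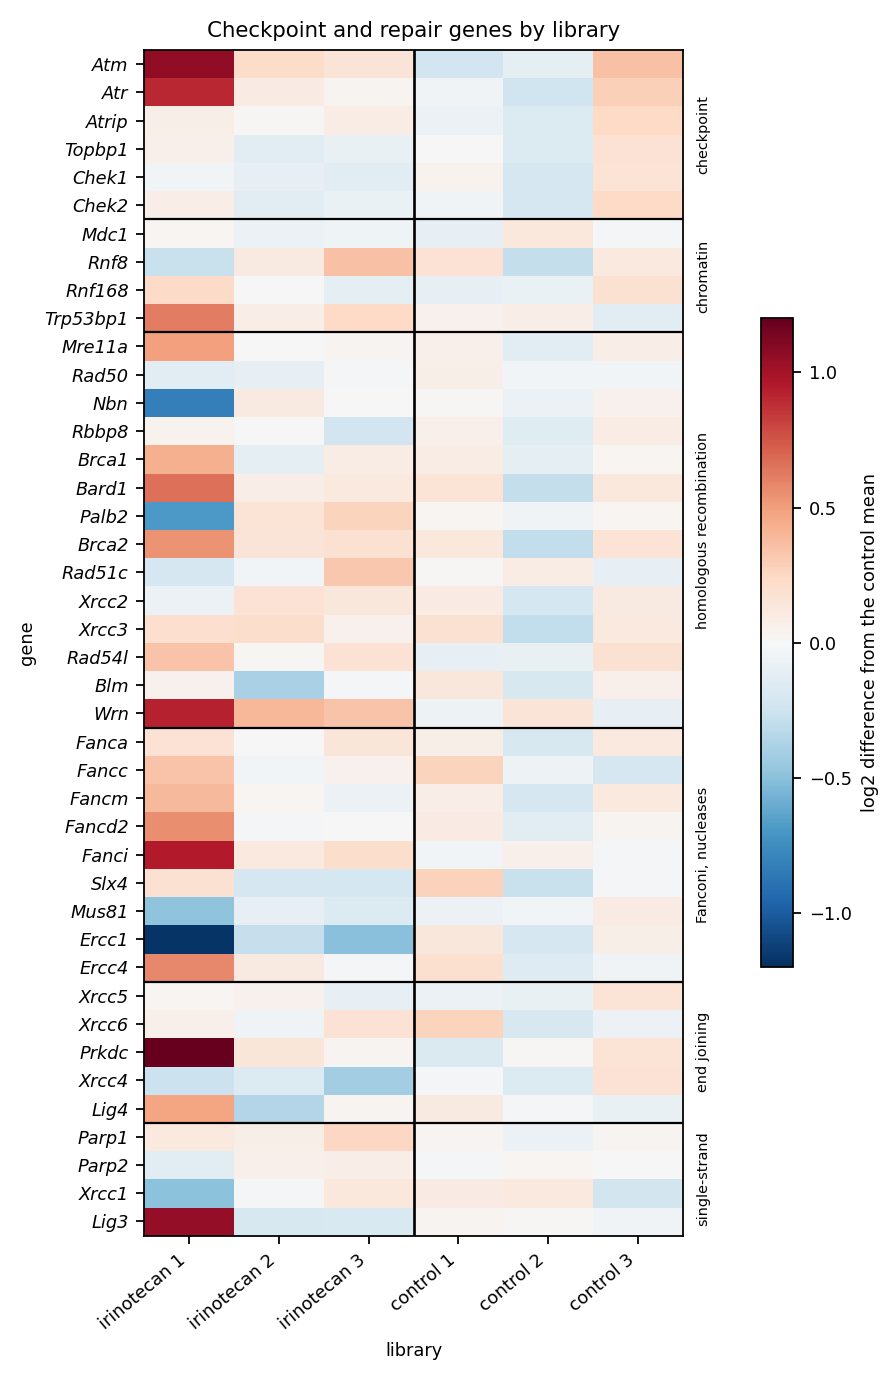
Log2 difference of each member (vertical axis, grouped by role) from its control mean in each library (horizontal axis); red is above and blue below the control mean. Irinotecan replicate 1 holds the deepest colours, from -1.18 for Ercc1 to 1.32 for Prkdc, and the other 5 libraries stay closer to the control mean.

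Without irinotecan replicate 1, 24 members lay closer to 0 and 18 further from it, and 9 had the opposite sign. Again 0 of 42 members were called, against 0.0137% of all genes, and the lowest adjusted p of a member was 0.331 in limma. The median log2 fold change was 0.05, and the range ran from -0.39 for Ercc1 to 0.37 for Wrn. Positive values were found for 24 members, beside 7256 of 14639 genes tested. All 42 intervals then lay within 2-fold and 38 within 1.5-fold. Over all genes tested, 11286 of 14639 then lay within 2-fold and 8266 within 1.5-fold.

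Counting members whose groups did not overlap gave a similar reading. With all libraries, 4 members were higher in every irinotecan library than in any control library, Trp53bp1, Wrn, Fanci and Parp1, against 6.68% of all genes tested. Mus81 and Ercc1, 2 members, were lower throughout, against 7.89% of all genes. Without irinotecan replicate 1, 7 members were higher throughout (Trp53bp1, Wrn, Fanci, Parp1, Parp2, Xrcc2 and Palb2), beside 12.8% of all genes, and 3 were lower throughout (Mus81, Ercc1 and Lig3), beside 13.7% of all genes. The members' shares lay above the background on the higher side and below it on the lower side, by a few genes at most, too little to set them apart.

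The members' promoters were examined for letters bound by cell cycle and stress factors, since E2F factors are known to drive many replication and repair genes in S phase. Promoter sequences, 250 bases before to 50 after each start site, came from RefSeq with the build GRCm38.p6 and matched 35 of 42 members. The E2F-type letters searched on both strands were TTTCCCGC, TTTGGCGC, TTTCGCGC and TTTGCCGC, counted as 1 motif and once per gene over all its listed start sites. They were in 7 of 35 member promoters (20.0%), in 2.61% of the 27025 genes in the table and in 4.54% of the 10308 of those genes that were also tested here. The 8 matches are shown with 11 bases on each side because this was the motif, of the 4 kinds searched, whose share in the members lay furthest from that in tested genes; each is written on the strand of its gene, and capitals mark the E2F-type letters or their complement.
Topbp1 (chr9:103305187-103305216, plus strand): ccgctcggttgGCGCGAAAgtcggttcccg
Chek2 (chr5:110839820-110839849, plus strand): cgggattagccGCGGGAAAccaagacgtcg
Mdc1 (chr17:35841471-35841500, plus strand): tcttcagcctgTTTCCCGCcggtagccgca
Bard1 (chr1:71103163-71103192, minus strand): ccgccgctcagTTTCCCGCtcaggaagttt
Brca2 (chr5:150522442-150522471, plus strand): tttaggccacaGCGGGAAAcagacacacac
Rad51c, downstream start site (chr11:87404477-87404506, minus strand): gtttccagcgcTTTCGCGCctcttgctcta
Rad51c, upstream start site (chr11:87404941-87404970, minus strand): cccccgcgaggGCGGGAAAagcaaggggtc
Xrcc6 (chr15:82016312-82016341, plus strand): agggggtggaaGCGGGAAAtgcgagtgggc

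Other letters stood nearer to the background. CCAAT was in 19 of 35 member promoters (54.3%) and in 42.8% of the tested genes' promoters. TTTGAA, the cell cycle homology element, was in 2 (5.71%) and in 14.5% of the tested genes. TGACGTCA, the cyclic AMP response element, was in 2 (5.71%), Brca2 and Rad51c, and in 3.54% of the tested genes. The median GC content of the promoters was 58.7% for members and 60.3% for tested genes. Members had 1.09 listed start sites on average and tested genes 1.27. A match here is a description of letters, not a bound site. The log2 fold changes of the 7 genes with E2F-type letters ran from -0.06 for Topbp1 to 0.29 for Brca2 and Bard1, and without irinotecan replicate 1 from -0.11 for Topbp1 and Chek2 to 0.17 for Brca2.

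Among the 6 checkpoint kinase genes and their activators, none passed the test, and the median log2 fold change was 0.01. It was -0.03 without irinotecan replicate 1, -0.02 without control replicate 1, -0.08 without control replicate 2 and 0.13 without control replicate 3. Atm (ENSMUSG00000034218, GRCm38 chromosome 9, 53439149 to 53536740), the kinase activated at double-strand breaks, had 1569, 871 and 834 normalized counts in irinotecan tumours and 638, 688 and 954 in control tumours. Irinotecan replicate 1 was highest, and replicates 2 and 3 lay inside the control range. Its log2 fold change was 0.48 (SE 0.266, 95% interval -0.13 to 1.09, limma adjusted p = 0.743), and 0.19 without irinotecan replicate 1. Atr (chromosome 9, 95857597 to 95951781), the kinase activated at exposed single-stranded DNA, had 1700.4, 971 and 926 in irinotecan tumours and 879, 767 and 1101 in control tumours. It followed the same pattern, with replicate 1 alone outside the control range. Its log2 fold change was 0.35 (SE 0.251, limma adjusted p = 0.743), and 0.07 without that library.

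The effector kinase genes lay close to their control means. Chek1, the kinase downstream of ATR, had 389, 373 and 364 normalized counts in irinotecan tumours and 410.4, 346 and 448 in control tumours. All 3 irinotecan values lay inside the control range, and the log2 fold change was -0.09 (95% interval -0.45 to 0.27), and -0.12 without irinotecan replicate 1. Chek2, the kinase downstream of ATM, had 327, 283 and 293 in irinotecan tumours and 302, 269.7 and 367 in control tumours. These also lay inside the control range, with a log2 fold change of -0.05 (95% interval -0.45 to 0.36), and -0.11 without that library. Atrip, the partner that brings ATR to DNA, had a log2 fold change of 0.06, and Topbp1, which activates ATR, one of -0.06; without irinotecan replicate 1 these were 0.05 and -0.11. In this role control replicate 3 was the highest library for 4 of 6 genes and control replicate 2 the lowest for 5 of 6. The level per kilobase of Atrip relative to Atr was 0.926 ± 0.276 in irinotecan tumours and 1.09 ± 0.0484 in control tumours (SD, n = 3 each); it was 0.612 in irinotecan replicate 1 and above 1 in the other 5 libraries.

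Among the 4 chromatin mediators of break sites, the median log2 fold change was 0.05 with and without irinotecan replicate 1, and 0.01 without control replicate 2 and 0.13 without control replicate 3. Trp53bp1 (chromosome 2, 121193281 to 121271407), whose protein restrains end resection and favours end joining, had the smallest unadjusted p of this role. It had 1055, 728 and 813 normalized counts in irinotecan tumours and 714, 726 and 627 in control tumours. Every irinotecan value was above every control value, though replicate 2 by a small margin. This gave a log2 fold change of 0.31 (SE 0.170, 95% interval -0.08 to 0.70, limma adjusted p = 0.743), and 0.16 without irinotecan replicate 1. Mdc1, the adaptor that binds phosphorylated histone at breaks, had 1159, 1083 and 1101 in irinotecan tumours and 1066, 1241 and 1121 in control tumours. The groups overlapped, with a log2 fold change of -0.03 (95% interval -0.32 to 0.26), and -0.06 without irinotecan replicate 1. The ubiquitin ligase genes Rnf8 and Rnf168 had log2 fold changes of 0.06 and 0.04, and of 0.23 and -0.05 without irinotecan replicate 1. Rnf8 shares its strand and part of its span with another annotated coding gene, Gm28043, so its reads may be split between both.

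Homologous recombination was the largest role, with 14 members and a median log2 fold change of 0.11, 0.10 without irinotecan replicate 1 and 0.04 without control replicate 2. The log2 fold change was positive for 9 members (64.3%), beside 48.2% of all genes tested. Wrn (ENSMUSG00000031583, chromosome 8, 33234384 to 33385527), a RecQ helicase and exonuclease that works at stalled forks, had 1346, 931 and 899 normalized counts in irinotecan tumours and 678, 789 and 662 in control tumours. All 3 irinotecan libraries were above all 3 controls. In limma the log2 fold change was 0.56 (SE 0.185, 95% interval 0.13 to 0.98), that is 1.47-fold with an interval of 1.10 to 1.97, with an adjusted p of 0.743 in limma. Without irinotecan replicate 1 it was 0.37 (95% interval 0.11 to 0.63, limma adjusted p = 0.341). Blm, the RecQ helicase that dissolves joined recombination intermediates, had a log2 fold change of -0.12, and -0.20 without that library.

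The breast cancer susceptibility genes showed no difference beyond their spread. Brca1, whose protein promotes resection, had 1031, 708 and 815 normalized counts in irinotecan tumours and 813, 705 and 779.5 in control tumours. Its log2 fold change was 0.14 (95% interval -0.25 to 0.52), and -0.01 without irinotecan replicate 1. Brca2 (chromosome 5, 150522630 to 150570329), a core mediator of homologous recombination, had 1842, 1413 and 1441 in irinotecan tumours and 1386, 1033 and 1419 in control tumours. Irinotecan replicate 2 lay below the highest control, and control replicate 2 was the lowest library. Over all libraries its log2 fold change was 0.29 (SE 0.176, 95% interval -0.11 to 0.70, limma adjusted p = 0.743), and 0.17 without irinotecan replicate 1. Bard1, the obligate partner of Brca1, had a log2 fold change of 0.29, and 0.10 without irinotecan replicate 1.

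Palb2, which bridges BRCA1 and BRCA2, had 109.9 normalized counts in irinotecan replicate 1, the lowest of all libraries, and 199 and 215 in replicates 2 and 3, against 172 to 181 in control tumours. Its log2 fold change was -0.09 with all libraries and 0.22 without that one. Genes of the complex that tethers and trims broken ends had unequal levels in the same library. Nbn had 320.4, 612 and 568 in irinotecan tumours and 571, 540.5 and 589 in control tumours, a log2 fold change of -0.24, and of 0.06 without irinotecan replicate 1. Its partners Mre11a and Rad50 had log2 fold changes of 0.18 and -0.09, and of 0.02 and -0.06 without that library. The level per kilobase of Nbn relative to Mre11a was 0.455 in irinotecan replicate 1 and 1.10 to 1.22 in the other 5 libraries. Rbbp8, which starts resection, had a log2 fold change of -0.06, and -0.12 without it. The recombination genes Rad51c, Xrcc2 and Xrcc3 had 0.03, 0.08 and 0.16, and 0.15, 0.15 and 0.13 without irinotecan replicate 1. Rad54l, a DNA translocase, had 0.17, and 0.09 without that library.

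The 9 genes of the Fanconi anaemia pathway and its nucleases had a median log2 fold change of 0.11, -0.01 without irinotecan replicate 1 and 0.02 without control replicate 2. Ercc1 (ENSMUSG00000003549, chromosome 7, 19344778 to 19356524) encodes the subunit that joins the XPF nuclease, encoded by Ercc4, to cut DNA at crosslinks and bulky lesions. It had 1747, 3276 and 2802 normalized counts in irinotecan tumours and 4342, 3450.2 and 4147 in control tumours. All 3 irinotecan libraries were below all 3 controls, replicate 1 furthest. Its log2 fold change was -0.65 (SE 0.231, 95% interval -1.18 to -0.12), a ratio of 0.637 with an interval of 0.441 to 0.919, and the limma adjusted p was 0.743. Without irinotecan replicate 1 it was -0.39 (95% interval -0.65 to -0.12, limma adjusted p = 0.331). Cd3eap, a coding gene that overlaps Ercc1 on the opposite strand, had 239, 339 and 384 normalized counts in irinotecan tumours and 467, 381 and 422 in control tumours. With no strand setting stated, reads in the shared stretch cannot be assigned to either gene.

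Ercc4 had a log2 fold change of 0.22, and 0.04 without irinotecan replicate 1. The level per kilobase of Ercc4 relative to Ercc1 was 0.152, 0.0587 and 0.0624 in irinotecan tumours and 0.0468, 0.0464 and 0.0418 in control tumours. Of the 12 partner ratios computed, this was the one whose groups did not overlap. Ercc1 itself was lower throughout, so the ratio is not a separate result. Among all genes tested, 6.68% were higher throughout and 7.89% lower throughout, and no such share was computed for ratios.

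Fanci, which is ubiquitinated together with Fancd2 when forks stall, had 474, 267 and 284 normalized counts in irinotecan tumours and 239, 256 and 241 in control tumours. Its groups did not overlap, and replicate 1 was far above the other libraries. Fanci had a log2 fold change of 0.43 (SE 0.235, 95% interval -0.11 to 0.96, limma adjusted p = 0.743), and 0.16 without that library. Fancd2 had a log2 fold change of 0.18, and -0.01 without irinotecan replicate 1. The core complex genes Fanca and Fancc had 0.10 and 0.12, and 0.07 and 0.01 without that library. Fancm, the translocase that anchors the complex on DNA, had 0.11, and -0.02 without it. Mus81, a nuclease of stalled forks, had 120.1, 157 and 150 in irinotecan tumours and 159.9, 164 and 180.1 in control tumours. The groups did not overlap, by a margin small beside their spread, and the log2 fold change was -0.25 (SE 0.196), and -0.13 without irinotecan replicate 1. Slx4, the scaffold for these nucleases, had -0.08, and -0.21 without that library.

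End joining genes, 5 in number, had a median log2 fold change of 0.05, and values from -0.03 (without control replicate 2) to 0.12 (without irinotecan replicate 2) with 1 library left out; without irinotecan replicate 1 it was -0.02, without control replicate 1 it was 0.11 and without control replicate 3 it was 0.02. The Ku subunit genes Xrcc5 and Xrcc6, whose proteins ring broken ends, had log2 fold changes of -0.01 and 0.06, and of -0.02 and 0.06 without irinotecan replicate 1. Prkdc (chromosome 16, 15637866 to 15842235), the catalytic subunit of the kinase that Ku recruits, had 1413, 625 and 579.8 normalized counts in irinotecan tumours and 501, 572 and 633 in control tumours. Replicate 1 was far above every other library, and replicates 2 and 3 lay inside the control range. For Prkdc the log2 fold change was 0.50 (SE 0.318, 95% interval -0.23 to 1.23, limma adjusted p = 0.743), and 0.09 without that library. Xrcc4, the scaffold of the ligase, had 286, 305 and 256 in irinotecan tumours and 339, 305 and 386 in control tumours. Its groups overlapped at the lowest control, and the log2 fold change was -0.28 (SE 0.167, 95% interval -0.66 to 0.11), and -0.29 without irinotecan replicate 1. Lig4, the ligase itself, had 0.05, and -0.16 without that library.

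The 4 genes of single-strand break repair had a median log2 fold change of 0.08, 0.06 without irinotecan replicate 1 and 0.03 without irinotecan replicate 3. Parp1 (chromosome 1, 180568924 to 180601254), the sensor of nicks that also acts at trapped topoisomerase I, had 1818, 1759 and 1998 normalized counts in irinotecan tumours and 1719, 1599.7 and 1717 in control tumours. The groups did not overlap, and the log2 fold change was 0.15 (SE 0.122, 95% interval -0.13 to 0.43, limma adjusted p = 0.754), and 0.16 without irinotecan replicate 1. Lig3, the nuclear and mitochondrial ligase, had 1233, 520.1 and 525 in irinotecan tumours and 607, 600.1 and 576 in control tumours. Replicate 1 was the highest library, while replicates 2 and 3 were below every control. Lig3 had a log2 fold change of 0.23 (95% interval -0.49 to 0.94), and -0.18 without that library. Xrcc1, the scaffold that holds the ligase, had -0.13, and Parp2, a second nick sensor, had 0.01; without that library these were 0.05 and 0.07. The level per kilobase of Lig3 relative to Xrcc1 was 2.15 in irinotecan replicate 1, 0.593 and 0.654 in the other irinotecan libraries, and 0.684 to 0.828 in control tumours.

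**Figure D2:**
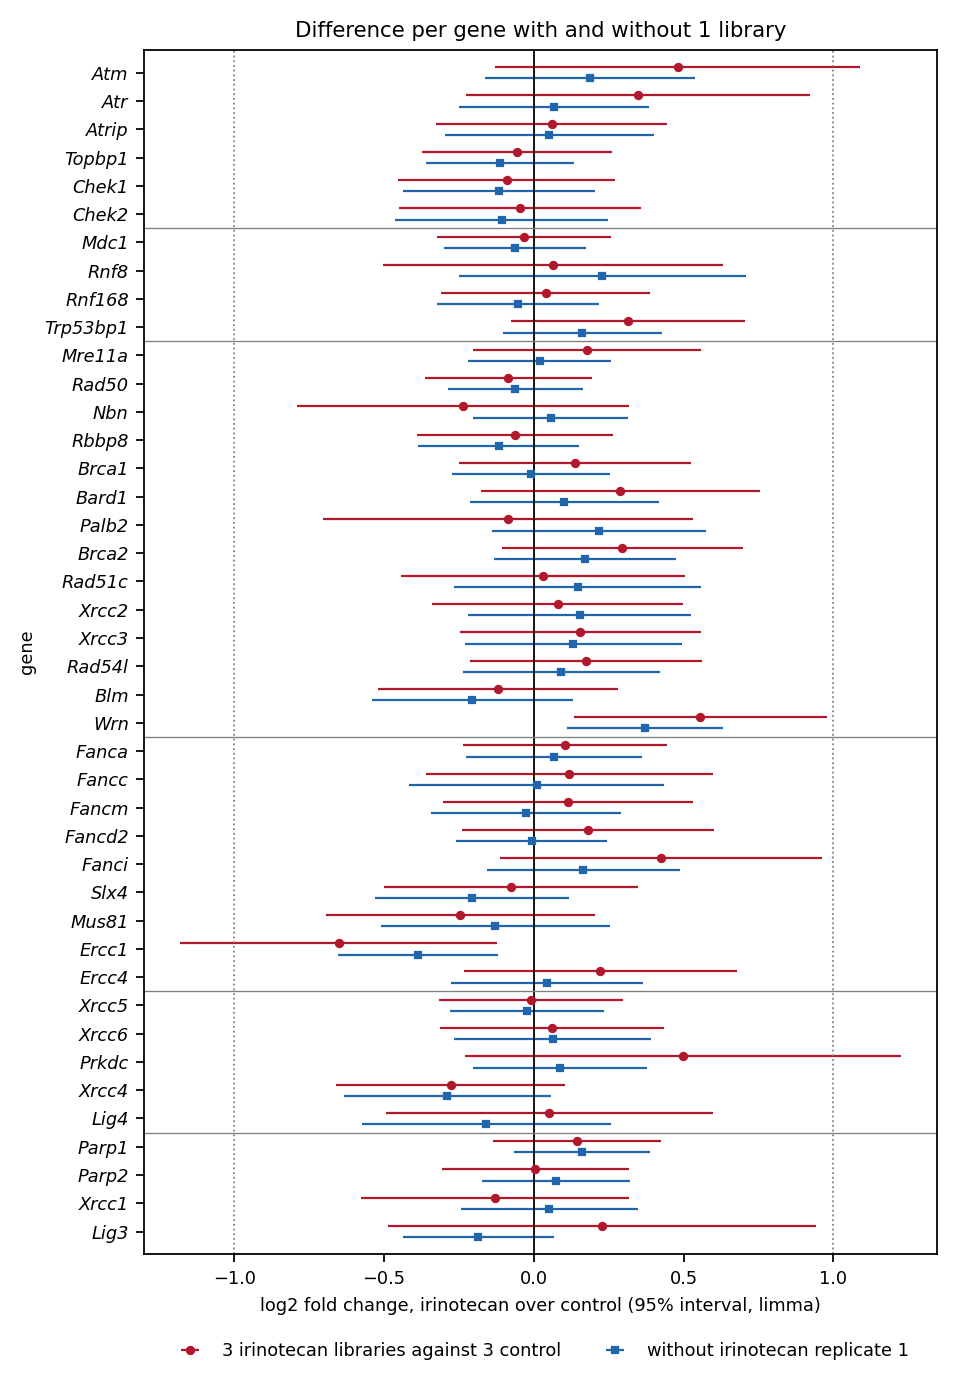
Log2 fold change of irinotecan over control for each member, with its 95% interval from limma, with all 6 libraries (red circles) and without irinotecan replicate 1 (blue squares); dotted lines mark a 2-fold change. The intervals of Wrn and Ercc1 exclude 0 in both, and the largest shifts between both fits are those of Lig3, Prkdc and Palb2.

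The members that stood far from the controls in irinotecan replicate 1 differed in length. Across the 42 members, the log2 difference from the control mean correlated with the log2 deposited gene length at r = 0.61 in irinotecan replicate 1, 0.12 in replicate 2 and 0.24 in replicate 3. Across all 14620 genes with a GC value the corresponding r in replicate 1 was 0.25, and the members' r with GC content in it was -0.38. The 21 members longer than the median member, 5879 bases, had a median difference of 0.43 in irinotecan replicate 1, 0.01 in replicate 2 and 0.03 in replicate 3. The 21 shorter members had -0.04, -0.00 and 0.03. Members were long and low in GC, with medians of 5879 bases and 46.4%, against 3968 bases and 50.1% for all genes tested. These correlations are across genes, which share libraries and are not independent replicates.

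When a smooth trend on GC content and length was removed from each library, the differences from the control mean in irinotecan replicate 1 were smaller for 27 members and larger for 15. Its log2 difference from the control mean was then 0.66 for Atm, against 1.07 before, and 0.18 for Atr, against 0.91 before. For Prkdc it was 0.85, against 1.32 before. Among the members with larger differences, Xrcc3 had 1.0, against 0.20 before, and Palb2 -0.96, against -0.69 before. With the trend removed, Wrn had differences of 0.60, 0.36 and 0.36 in irinotecan replicates 1, 2 and 3, and Ercc1 had -0.59, -0.23 and -0.52. The fitted log2 fold changes were then 0.44 for Wrn and -0.45 for Ercc1, and 0 members were called. The cause of the length pattern was not tested.

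**Figure D3:**
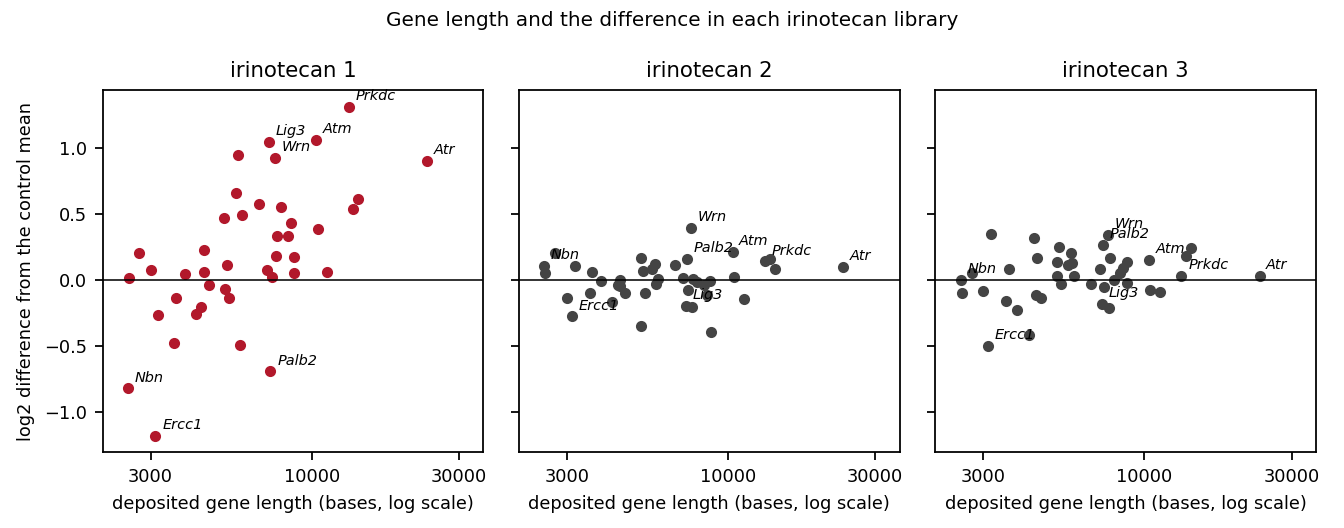
Log2 difference from the control mean (vertical axis) against deposited gene length in bases on a log scale (horizontal axis) for the 42 members, in each irinotecan library. In irinotecan replicate 1 long members such as Prkdc, Atm and Atr lie high and short ones such as Ercc1 and Nbn lie low (r = 0.61). Not every member follows this: Palb2, 7342 bases long, lies at -0.69 and Xrcc3, 2750 bases long, at 0.20. The points of replicates 2 and 3 lie closer together, from -0.39 (Blm) to 0.40 (Wrn) and from -0.50 (Ercc1) to 0.35 (Rnf8).

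The levels of the members spanned a wide range in both groups. Per kilobase of the deposited gene length, Ercc1 was highest, at 838 ± 252 normalized counts in irinotecan tumours and 1279 ± 151 in control tumours (SD, n = 3 each). Xrcc5 followed at 439.9 ± 23.6 in irinotecan tumours and 443 ± 45.7 in control tumours. Parp1 stood at 351 ± 23.5 in irinotecan tumours and 317 ± 12.9 in control tumours, and Topbp1 at 308 ± 22.3 in irinotecan tumours and 321 ± 37.5 in control tumours. In control tumours Topbp1 and Parp1 did not differ beyond their spread. At the other end were Fancc, at 21.4 ± 2.99 in irinotecan tumours and 19.8 ± 3.40 in control tumours, and Palb2, at 23.8 ± 7.72 in irinotecan tumours and 24.2 ± 0.649 in control tumours. Of the kinase genes, Atm stood at 106 ± 40.1 in irinotecan tumours and 73.5 ± 16.4 in control tumours, and Atr at 50.8 ± 18.4 in irinotecan tumours and 38.8 ± 7.19 in control tumours. Chek2 stood at 100.4 ± 7.77 in irinotecan tumours and 104 ± 16.5 in control tumours, and Chek1 at 81.0 ± 2.77 in irinotecan tumours and 86.6 ± 11.2 in control tumours.

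**Figure D4:**
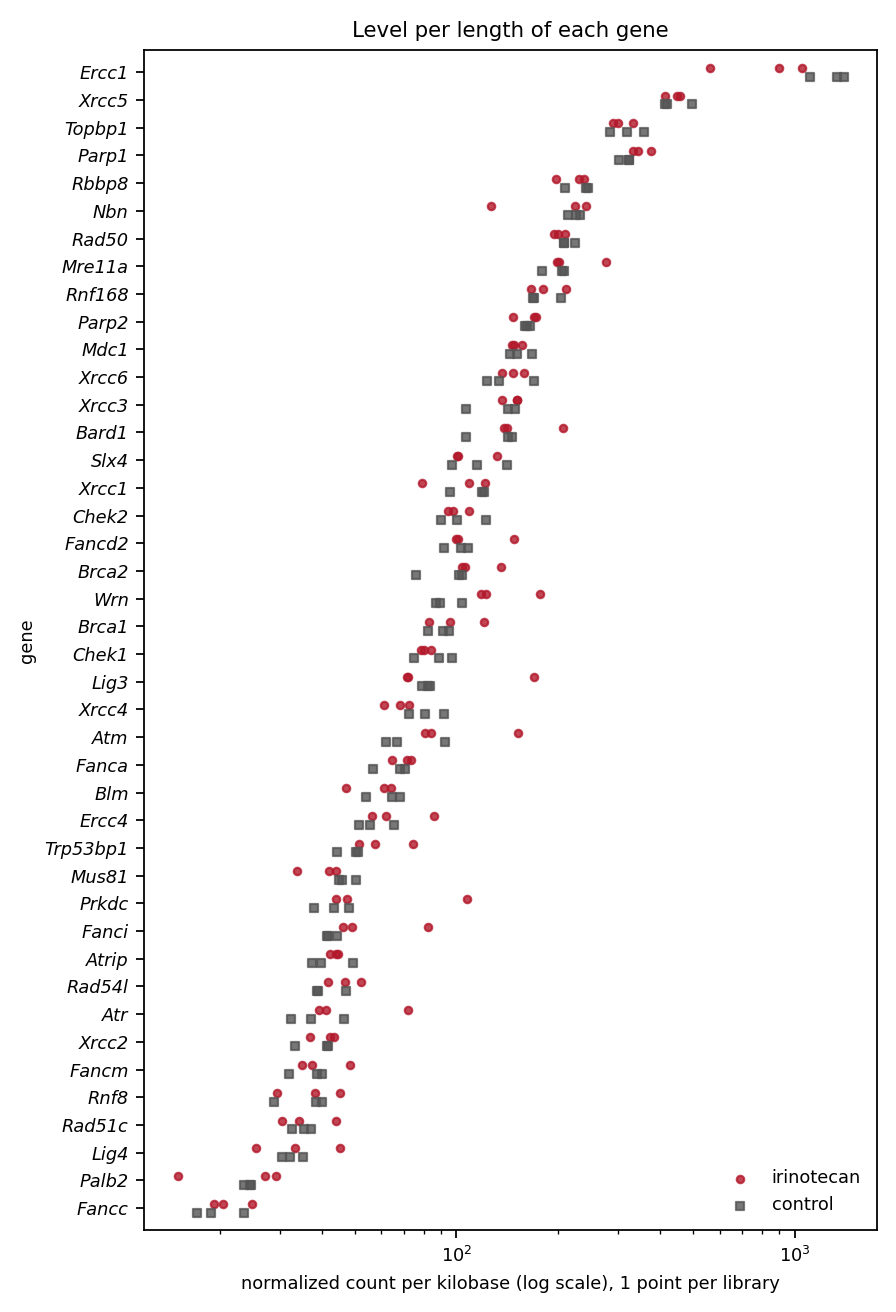
Normalized count per kilobase of gene length on a log scale (horizontal axis) for each member (vertical axis, ordered by control mean), 1 point per library, irinotecan in red and control in grey. Mean levels in control tumours run from 19.8 for Fancc to 1279 for Ercc1, and for most genes the groups overlap.

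All partner ratios other than that of Ercc4 to Ercc1 overlapped between the groups. Bard1 relative to Brca1 was 1.62 ± 0.121 per kilobase in irinotecan tumours and 1.46 ± 0.146 in control tumours (SD, n = 3 each). Xrcc6 relative to Xrcc5 was 0.336 ± 0.0439 in irinotecan tumours and 0.324 ± 0.0706 in control tumours. Palb2 relative to Brca2 was 0.111 in irinotecan replicate 1, 0.262 and 0.277 in replicates 2 and 3, and 0.237 to 0.310 in control tumours. Prkdc relative to Xrcc5 was 0.239 in irinotecan replicate 1, 0.103 and 0.106 in replicates 2 and 3, and 0.0905 to 0.105 in control tumours.

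The controls varied among themselves in a shared way. Control replicate 2 was the lowest of the 6 libraries for 19 of 42 members (45.2%), whereas it was lowest for 9.71% of all genes tested. The median log2 difference of the members from the control mean was -0.13 in control replicate 2, 0.05 in control replicate 1 and 0.07 in control replicate 3. It was 0.15, 0.01 and 0.03 in irinotecan replicates 1, 2 and 3. The spread between the controls was thus wider than the distance of irinotecan replicates 2 and 3 from the control mean.

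Many repair genes, though not all, are known to be transcribed in S phase, and proliferation markers were read beside the members. The sum of 15 proliferation markers was 53159, 52883 and 54063 normalized counts in irinotecan tumours and 51991, 48528 and 49425 in control tumours. The groups did not overlap, and 0 of the 15 genes were called, with a median log2 fold change of 0.04. It was 0.06 without irinotecan replicate 1, 0.07 without control replicate 1, -0.05 without control replicate 2, 0.01 without control replicate 3 and 0.02 without irinotecan replicate 3. The separation rests on Top2a: the other 14 markers summed to 39492, 43009 and 43882 in irinotecan tumours and 43525, 38881 and 41725 in control tumours and overlapped, a sum chosen after seeing the data. Macrophage markers summed to 4579, 7494 and 6568 in irinotecan tumours and 9462, 9018 and 8513 in control tumours, and endothelial markers to 1278, 1445 and 1708 in irinotecan tumours and 2309, 1972 and 2215 in control tumours. Neutrophil markers summed to 131, 170.5 and 209.8 in irinotecan tumours and 289.8, 289.6 and 495 in control tumours, again without overlap. Not every marker separated: Cd68, Fcgr1, Kdr, S100a8 and S100a9 overlapped between the groups. Much of the macrophage sum came from Mrc1, with 2409, 3829 and 2783 in irinotecan tumours and 5191, 4775 and 4809 in control tumours. Fcgr1 had 272, 614 and 646 in irinotecan tumours and 551, 565 and 480 in control tumours. Markers of T cells (206, 498 and 391 in irinotecan tumours, 318, 370.1 and 272 in control tumours) and of fibroblasts (32651, 34095 and 35402 in irinotecan tumours, 29257, 36557 and 26656 in control tumours) overlapped. So did those of B cells, at 15.4, 21.2 and 19.3 in irinotecan tumours and 26.2, 33.5 and 17.4 in control tumours. The 6 epithelial markers summed to 124, 298 and 259 in irinotecan tumours and 194, 224 and 235 in control tumours. Skeletal muscle markers summed to 186, 210 and 665 in irinotecan tumours and 336, 58.5 and 263 in control tumours. These sums overlapped too. None of the 5 macrophage, 4 endothelial or 4 neutrophil markers was at 0 in any library. The part of these in the members' values was not tested.

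Further genes of the same pathways gave the same count of calls. Of 97 listed, 96 were in the table and tested, and 0 were called by limma. The log2 fold change was positive for 41 (42.7%) and negative for 55, beside 48.2% positive over all genes tested. The median over the 96 genes was -0.04. Without irinotecan replicate 1, 0 were called, 49 were positive, beside 7256 of 14639 genes tested, and the median was 0.01. At an unadjusted p under 0.05, 1 was higher, Rad51b, and 1 lower, Polm, beside 2.68% higher and 3.08% lower over all genes tested. Rad51b, a recombination gene, had 138, 64.5 and 89.2 normalized counts in irinotecan tumours and 58.0, 53.3 and 26.1 in control tumours, a log2 fold change of 1.08 (limma adjusted p = 0.743), and 0.80 without irinotecan replicate 1. Polm, a polymerase of end joining, had 199, 442 and 412 in irinotecan tumours and 617, 452 and 600.4 in control tumours, a log2 fold change of -0.73 (limma adjusted p = 0.743), and -0.37 without that library. For both genes the groups did not overlap. In all, 6 of the 96 genes were higher throughout and 8 lower throughout, beside 6.68% and 7.89% of all genes tested.

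By list, the medians of these other genes ran from -0.28 for single-strand break and base excision repair to 0.06 for nucleotide excision repair, and those 2 lists had -0.13 and 0.03 without irinotecan replicate 1. Single-strand break and base excision repair had 13 genes, 4 of them positive (30.8%), beside 48.2% of all genes tested. Irinotecan replicate 1 was the lowest library for 10 of the 13 (76.9%), for 48 of all 96 genes and for 36.8% of all genes tested. The glycosylase genes Ogg1 and Nthl1 had log2 fold changes of -0.54 and -0.50, and of -0.27 and -0.42 without that library. In nucleotide excision repair, Ercc6 had 0.27 and Gtf2h1 -0.21, and 0.23 and -0.19 without it.

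The medians of the other lists, recombination aside, also differed with and without irinotecan replicate 1. Other checkpoint genes had a median of -0.02, and -0.06 without it; Rad9a had -0.46 and Cdc25c 0.39, and -0.19 and 0.24 without it. Other chromatin genes had a median of -0.13, and -0.03 without it. Among them Mad2l2 had -0.40 and Rif1, which acts with Trp53bp1, 0.27, and -0.11 and 0.14 without that library. Other recombination genes had a median of 0.01 both ways, and the resolvase gene Gen1 had 0.36, and 0.24 without that library. Other Fanconi and nuclease genes had a median of -0.06, and 0.03 without it. Slx1b had -0.77 and Eme2, a partner of Mus81, 0.66, and -0.34 and 0.49 without it. Other end joining genes had a median of -0.09, and 0.11 without it, and Aplf had 0.23, and 0.25 without it. With each library left out in turn, the medians ranged from -0.07 to 0.04 for checkpoint, from -0.22 to -0.03 for chromatin and from -0.04 to 0.07 for recombination genes. They ranged from -0.09 to 0.03 for Fanconi and nuclease, from -0.22 to 0.11 for end joining, from -0.34 to -0.13 for single-strand break and base excision repair and from -0.01 to 0.10 for nucleotide excision repair genes.

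The authors' deposited table gives the same reading of the members. It lists an adjusted p under 0.05 for 47 of 25251 genes (0.186%) and for 0 of 42 members, the lowest adjusted p of a member in the authors' deposited table being 0.508. The sign of the fold change in the authors' deposited table was that of limma for all 42.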

How the data were processed

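Per the submitters' processing notes, reads were handled on GRCm38 (mm10) with these tools, whose roles are not stated: DESeq2 1.20.0, featureCounts 1.5.0-p3, HISAT2 2.0.5, fastp and CASAVA. The sources used here give neither the annotation release nor the strand setting. The authors deposited a table with a normalized signal per library, that is, read counts divided by 1 factor per library, and whole reads were recovered from it: in each library the lowest value above 0 divided 100% of values into whole numbers (tolerance 1e-06). Per the file headers, it also gives group means, log2 fold changes and p-values computed by the authors.

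Genes with a mean of at least 10 normalized counts were tested with limma 3.58.1 in R 4.3.3 (empirical Bayes with a mean-variance trend, two-sided, group only) on log2(normalized count + 1), which understates the change of low genes, with Benjamini-Hochberg adjustment over all genes tested. With 3 samples against 3, an exact permutation test of 1 gene cannot give a p below 0.1. Levels between genes are per kilobase of the deposited gene length. Alternatives used edgeR 4.0.16 and DESeq2 1.42.0 on the recovered reads, and a trend fitted with mgcv 1.9.3 on gene length and on GC content from GENCODE transcripts; 99.9% of tested genes had a GC value. The fits were first tested on simulated data.

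The members and gene lists were chosen with earlier results of these data known. All 42 members are named. Values in every library are given for Atm, Atr, Chek1, Chek2, Brca1, Brca2, Prkdc, Parp1 and the 2 members per role with the smallest unadjusted p; the same rule names 2 genes per list of other pathway genes. Per-library values of Nbn, Palb2, Mus81, Cd3eap, Mrc1 and Fcgr1 were added after they were seen. Nothing in the labels ties each sample to a mouse of its own, so the p-values speak of the spread between samples, which may be technical. Libraries of the same group differed by more than counting noise, with chi-square over its degrees of freedom 10.7 or more. The labels name no molecular identifiers, so reads were not taken as independent molecules, and depth bounds only the counting error. Of the members, 12 overlap a coding gene on the opposite strand: Trp53bp1, Mre11a, Xrcc3, Rad54l, Fanca, Fancc, Fancd2, Fanci, Ercc1, Xrcc6, Xrcc4 and Lig3. Their reads and those of the partner cannot be told apart without strand. The series text speaks of duplicates, while the labels list 3 samples per group, all of which were used.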

Additional observations from a re-analysis of the deposited data

How the results depend on the processing

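Under each of 17 alternatives 0 of 42 members were called, and the lowest adjusted p of a member was 0.199, in limma with estimated library weights, within a range up to 0.989. The count over all genes was 0 in limma (844 genes at an unadjusted p under 0.05) and in edgeR (869), 46 in DESeq2 on the recovered reads (28 higher, 18 lower) and 52 with estimated library weights (30 higher, 22 lower). Leaving out 1 library at a time gave 0 to 2 calls, the 2 without irinotecan replicate 1. With the replicate number as a block, 0 genes and 0 members were called and 621 genes had an unadjusted p under 0.05; same-numbered samples correlated at -0.114, -0.00869 and -0.213, so the numbers were not taken to pair them. Wrn and Ercc1 were the members at an unadjusted p under 0.05 in every alternative except without control replicate 1 and without control replicate 3, where no member was. The median of the chromatin mediators was 0.05, and 0.013 to 0.13 with 1 library left out. For the levels of members, the median per kilobase was 102 in irinotecan tumours and 85.8 without irinotecan replicate 1. In control tumours the members ranked 21 and 22 of 42 by this level, Brca1 and Chek1, stood at 89.7 and 86.6.

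Of 714 member values under alternatives, 668 kept their direction and 46 changed sign, in 23 members, all with a log2 fold change of at most 0.24 in size. The cause was not tested. With estimated library weights the log2 fold change was -0.019 for Rnf168, 0.030 for Nbn, -0.017 for Brca1, 0.17 for Palb2, -0.025 for Fancc, -0.012 for Fancm, 0.0024 for Xrcc5, -0.18 for Lig4, 0.0046 for Xrcc1 and -0.15 for Lig3. With the GC and length trend removed it was 0.0021 for Chek2, -0.0025 for Rad51c, -0.0095 for Fancm, 0.030 for Xrcc5 and -0.019 for Lig4. It was 0.0097 for Chek2 with quantile normalization and -0.011 for Parp2 with TMM scaling. With 1 library left out, it ran from -0.023 to 0.18 for Atrip, -0.14 to 0.029 for Topbp1, -0.15 to 0.075 for Chek2, -0.083 to 0.027 for Mdc1, -0.080 to 0.23 for Rnf8, -0.053 to 0.13 for Rnf168, -0.41 to 0.057 for Nbn and -0.13 to 0.021 for Rbbp8. In the same way it ran from -0.0093 to 0.26 for Brca1, -0.26 to 0.22 for Palb2, -0.12 to 0.15 for Rad51c, -0.026 to 0.15 for Xrcc2, -0.22 to 0.017 for Blm, -0.025 to 0.21 for Fancm and -0.0063 to 0.28 for Fancd2, and from -0.21 to 0.062 for Slx4, -0.054 to 0.075 for Xrcc5, -0.035 to 0.19 for Xrcc6, -0.16 to 0.25 for Lig4, -0.034 to 0.075 for Parp2, -0.26 to 0.052 for Xrcc1 and -0.18 to 0.44 for Lig3.

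The members' differences were bounded as given by their intervals, which rest on the spread between 3 samples per group. Depth, 13940650 to 15656894 reads per library, bounds only the counting error. The median standard error of a member was 0.179 on the log2 scale, and 0.144 without irinotecan replicate 1.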
